A study of Homo sapiens with 4 samples.

Results

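The genes that write, copy and erase DNA methylation were followed in the human colorectal carcinoma line HCT116 after knockdown of RALY, an hnRNP that binds RNA. The group comprised 8 genes taken by name: the methyltransferase genes DNMT1, DNMT3A and DNMT3B, the targeting factors UHRF1 and UHRF2, and the dioxygenase genes TET1, TET2 and TET3. All 8 were found among the 58884 genes listed, and all 8 passed the filter on low counts that left 19686 genes. RNA sequencing was done on 2 libraries of RALY knockdown cells and 2 control libraries. Per the labels' protocols, cells were exposed for 72 h to lentivirus with a short hairpin RNA directed at RALY or with a nonsilencing hairpin, together with a transduction aid. Other labels call the control cells wild type or untreated, so it is not settled whether the controls carried the nonsilencing hairpin. The source names number the line HCT-116 in the first library of each group and HCT-117 in the second, whereas all 4 libraries list HCT-116 as their line. The labels do not give separate cultures for the libraries of a group, so the spread behind each p-value is that between libraries and may be technical.

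DNA methylation places a methyl group on cytosine, mostly where it is followed by guanine. DNMT3A and DNMT3B set new marks. UHRF1 recognises the half-methylated sites left by replication and brings in DNMT1, which copies the mark to the new strand. TET enzymes oxidise methylcytosine, using oxoglutarate as cosubstrate, and the oxidised base is either lost through replication or cut out by the glycosylase TDG. HCT116 has long served to study this machinery, since lines with DNMT1, DNMT3B or both genes disrupted were made from it.

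Promoters of 5 genes are shown, those of UHRF1 and DNMT1 because of these partners in maintenance UHRF1 was called lower and DNMT1 was not called, and those of the TET genes because all of them rose. Sequences are from RefSeq (GRCh38.p14), run from 250 bases before to 50 bases after a start site, and belong to the start nearest to that of the GENCODE canonical transcript. In UHRF1 (chr19:4909251-4909550, plus strand) and DNMT1 (chr19:10194904-10195203, minus strand) capitals mark a match to E2F motif letters.
UHRF1: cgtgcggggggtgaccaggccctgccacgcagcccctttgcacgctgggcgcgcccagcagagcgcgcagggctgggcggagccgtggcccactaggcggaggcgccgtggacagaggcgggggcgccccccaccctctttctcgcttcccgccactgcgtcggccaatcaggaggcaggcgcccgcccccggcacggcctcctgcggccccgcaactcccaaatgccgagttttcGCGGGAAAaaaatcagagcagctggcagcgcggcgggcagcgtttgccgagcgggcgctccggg
DNMT1: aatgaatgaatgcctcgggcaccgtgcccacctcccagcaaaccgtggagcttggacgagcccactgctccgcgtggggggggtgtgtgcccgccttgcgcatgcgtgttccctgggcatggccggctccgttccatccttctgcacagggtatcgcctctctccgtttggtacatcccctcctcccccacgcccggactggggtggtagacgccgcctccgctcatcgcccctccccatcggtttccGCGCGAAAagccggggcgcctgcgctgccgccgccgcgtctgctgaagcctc
In TET1 (chr10:68560087-68560386), TET2 (chr4:105146626-105146925) and TET3 (chr2:73984660-73984959), all on the plus strand, capitals mark the GC box GGGCGG.
TET1: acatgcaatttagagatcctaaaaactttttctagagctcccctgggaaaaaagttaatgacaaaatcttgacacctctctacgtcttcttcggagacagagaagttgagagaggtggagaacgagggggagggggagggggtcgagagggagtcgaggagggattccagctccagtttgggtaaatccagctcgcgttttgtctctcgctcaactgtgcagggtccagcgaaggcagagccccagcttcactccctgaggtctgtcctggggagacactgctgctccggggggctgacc
TET2: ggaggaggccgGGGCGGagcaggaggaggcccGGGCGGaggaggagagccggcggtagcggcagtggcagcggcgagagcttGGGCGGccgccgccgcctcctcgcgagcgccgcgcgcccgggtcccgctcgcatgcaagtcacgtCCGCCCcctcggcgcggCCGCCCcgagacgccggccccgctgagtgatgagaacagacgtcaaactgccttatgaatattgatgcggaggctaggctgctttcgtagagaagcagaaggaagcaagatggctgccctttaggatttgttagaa
TET3: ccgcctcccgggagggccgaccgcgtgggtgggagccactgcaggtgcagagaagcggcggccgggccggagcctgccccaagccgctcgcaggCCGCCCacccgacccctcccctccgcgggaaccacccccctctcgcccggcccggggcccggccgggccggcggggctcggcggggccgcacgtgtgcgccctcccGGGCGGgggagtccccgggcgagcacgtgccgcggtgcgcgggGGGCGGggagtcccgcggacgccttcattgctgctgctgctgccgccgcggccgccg

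The E2F letters searched on both strands were TTTCGCGC, TTTGGCGC, TTTCCCGC and TTTGCCGC. Among the windows nearest the canonical starts, they occurred once each in UHRF1 and DNMT1 and in none of the other members, and 3.3% of 34943 promoter windows of the same length hold one. The GC box occurred 5 times in TET2, 3 times in TET3 and not in TET1, and also 3 times in DNMT3A and 2 times each in UHRF1 and UHRF2, and 44.87% of all windows hold one. The TET1 window also had the lowest CpG observed over expected ratio of the TET genes, 0.463, against 1.03 for TET2 and 0.878 for TET3. Over all windows the median was 0.577 and the lower quartile 0.228. The DNMT3B window lay 17467 bases from the canonical start and is not described. The TET3 window ends at position 73984959, before TET3 begins in the deposited tables (73986404), so its start site lies outside the exons counted. CCAAT (34.65% of windows) was in the UHRF1 window, and the NRF1 motif, CCGGAAGT (bound by ETS factors) and TGACGTCA (bound by CREB) were in none of the 8. These matches are letters only and say nothing of binding. No searched motif overlapped another in the windows printed.

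RALY itself had 39.6 and 35.1 CPM (counts scaled to 1e6 per library, with TMM factors) in knockdown libraries, against 144 and 123 CPM in controls, so that 27.9% of the control level remained. Totals ran from 14762755 to 16493967 counts in the knockdown and from 13360007 to 16847520 in the controls. The epithelial markers EPCAM, KRT8, KRT18 and KRT19 stood between 113 and 207 CPM in the knockdown and between 105 and 206 CPM in the controls, while VIL1 was below 1 CPM in every library and CDX2 fell (log2 fold change -0.47). CDH1, which encodes E-cadherin, had 38.7 and 37.3 CPM in the knockdown, against 41.2 and 55.9 CPM in controls, without overlap and not called (log2 fold change -0.36, edgeR adjusted p = 0.114). Fibroblast markers summed to 103 and 132 CPM in knockdown and 127 and 147 CPM in control libraries, nearly all from COL1A1 and PDGFRB, with COL1A2, COL3A1, DCN and LUM below 1 CPM. Leukocyte markers summed to 34.3 and 34.1 CPM in the knockdown and 37.1 and 33.3 CPM in controls, mostly CD68, whose count is uncertain because it shares 85.6% of its exon bases with other genes, with PTPRC and CD3E below 1 CPM, and 1 of 4 tested, ITGAM, rose. Endothelial markers summed to 9.98 and 7.60 CPM in the knockdown and 10.1 and 10.3 CPM in controls, and none of 3 tested was called by edgeR or DESeq2 (1 had an unadjusted p under 0.05). Whether cells of these other types were present was not tested.

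Of the 8 genes, 4 rose (TET1, TET2, TET3 and DNMT3B), 2 fell (UHRF1 and DNMT3A) and 2 were not called (DNMT1 and UHRF2), by edgeR's quasi-likelihood test at a Benjamini-Hochberg adjusted p under 0.05 over all genes. Over all 19686 genes tested, 25.6% were called, 12.5% higher and 13.1% lower, and of the 13964 genes averaging 5 CPM or more 28.4% were called. The groups did not overlap in 7 of the 8 genes, as in 63.6% of all genes tested. The median log2 fold change was 0.33 over the 8 genes and 0.01 over all genes tested.

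**Figure D1:**
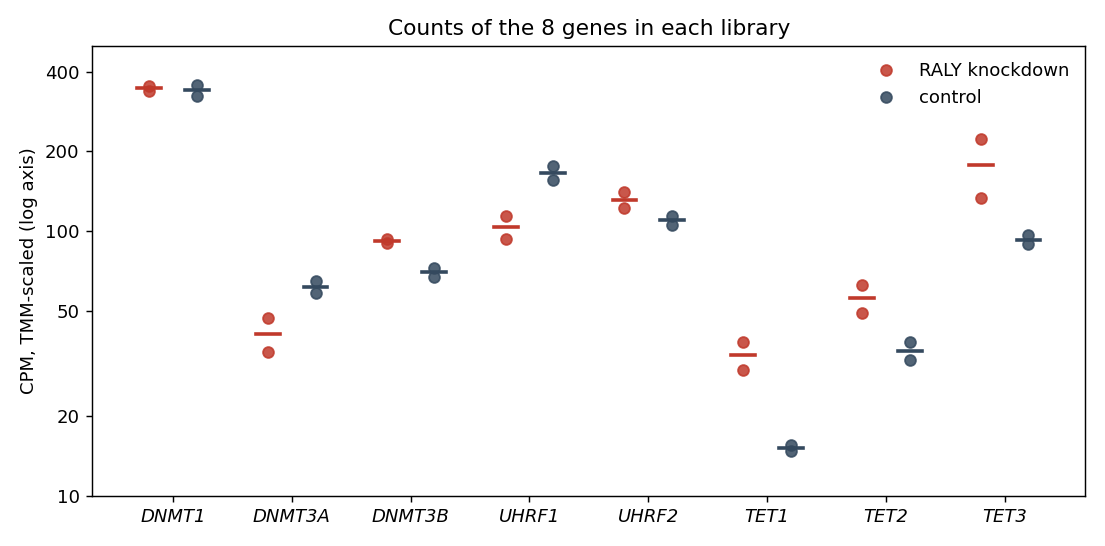
Level of each gene in CPM (log axis) in the 2 RALY knockdown libraries (red, left) and the 2 control libraries (dark, right), with a bar at the arithmetic mean of each pair. The TET genes and DNMT3B lie higher in the knockdown, UHRF1 and DNMT3A lower, and only for DNMT1 do the groups overlap.

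All TET genes were higher in the knockdown. TET1, which carries a CXXC domain that binds CpG-rich DNA (chromosome 10, GRCh38 positions 68560337 to 68694487), had 611 and 443 counts in knockdown libraries, against 195 and 268 in controls. That is 38.1 and 29.8 CPM in the knockdown and 14.8 and 15.5 CPM in controls. Both knockdown libraries were above both controls, and the log2 fold change was 1.16 (SE 0.178, edgeR adjusted p = 0.000793). Among all tested genes, 8.68% changed by as much or more in either direction.

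TET2, the family member without a CXXC domain and a frequent site of mutation in blood cancers (chromosome 4, positions 105145875 to 105279816), had 62.6 and 49.1 CPM in knockdown libraries, against 32.4 and 37.9 CPM in controls. The groups did not overlap, and the log2 fold change was 0.66 (SE 0.152, edgeR adjusted p = 0.0078). No exon base of TET2 is shared with another gene, its antisense gene TET2-AS1 included. TET3, best known for oxidising the paternal genome after fertilisation (chromosome 2, positions 73986404 to 74108176), had 223 and 134 CPM in the knockdown, against 96.6 and 89.0 CPM in controls. The first knockdown library was far above the second, and both were above the controls, with a log2 fold change of 0.94 (SE 0.187, edgeR adjusted p = 0.00349). It was 0.51 without knockdown replicate 1 and 1.26 without knockdown replicate 2, and DESeq2 did not call it (adjusted p = 0.0568).

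Added per kilobase of exon, TET transcripts came to 25.9 and 17.0 CPM per kb in the knockdown, against 11.4 and 11.2 CPM per kb in controls (mean 21.4 ± 6.32 in the knockdown and 11.3 ± 0.144 in controls, SD, n = 2 each). The knockdown sum was 1.90 times the control sum, with an exact two-sided permutation p of 0.333, the smallest that 2 libraries against 2 can give. TET3 made up 70.0% and 64.2% of the sum in knockdown libraries, against 69.2% and 64.9% in controls, and these shares overlapped. The share of TET1 was 15.3% and 18.3% in the knockdown, against 13.5% and 14.4% in controls (exact permutation p = 0.333). The share of TET2 was 14.7% and 17.6% in the knockdown and 17.3% and 20.6% in controls, with overlap. Shares depend on the length used: with canonical transcript lengths TET2 made up 22.5% and 26.5% of the sum in the knockdown and 26.2% and 30.6% in controls, and TET1 13.7% and 16.1% in the knockdown and 11.9% and 12.5% in controls.

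Long transcripts tended to be higher in the knockdown. Among the 1188 tested protein-coding genes whose canonical transcript is over 8000 bases, 27.5% were called higher and 8.25% lower (median log2 fold change 0.20), against 5.06% higher and 18.2% lower among the 3719 genes with at most 2000 bases (median -0.10). The canonical transcripts of TET1, TET2 and TET3 have 9612, 9589 and 12060 bases. With offsets for transcript length and GC content their log2 fold changes were 0.95, 0.45 and 0.78 (edgeR adjusted p = 0.000967, 0.0218 and 0.00694), smaller than without and still called. DNMT3A, with 9421 bases, fell by 0.69 with these offsets. The part of transcript length in the changes of these genes was not tested.

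Of the de novo methyltransferases, DNMT3B was higher and DNMT3A lower. DNMT3B (chromosome 20, positions 32762385 to 32809356) had 93.5 and 90.0 CPM in knockdown libraries, against 72.3 and 67.2 CPM in controls. Pairs were close and did not overlap, with a log2 fold change of 0.40 (SE 0.111, edgeR adjusted p = 0.0211). DNMT3A (chromosome 2, positions 25227855 to 25342590) had 46.8 and 34.8 CPM in the knockdown, against 58.3 and 64.6 CPM in controls. Both knockdown libraries were below both controls, with a log2 fold change of -0.59 (SE 0.151, edgeR adjusted p = 0.0137). DNMT3B transcripts per kilobase were 5.19 and 6.71 times those of DNMT3A in knockdown libraries, against 3.22 and 2.70 times in controls (exact permutation p = 0.333). Summed per kilobase, the pair had 23.2 ± 1.23 CPM per kb in the knockdown and 20.2 ± 0.408 in controls (SD, n = 2 each; exact permutation p = 0.333). DNMT3L, a catalytically inactive cofactor of both, had 4 and 6 counts in knockdown libraries and 2 and 3 in controls and was not tested.

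**Figure D2:**
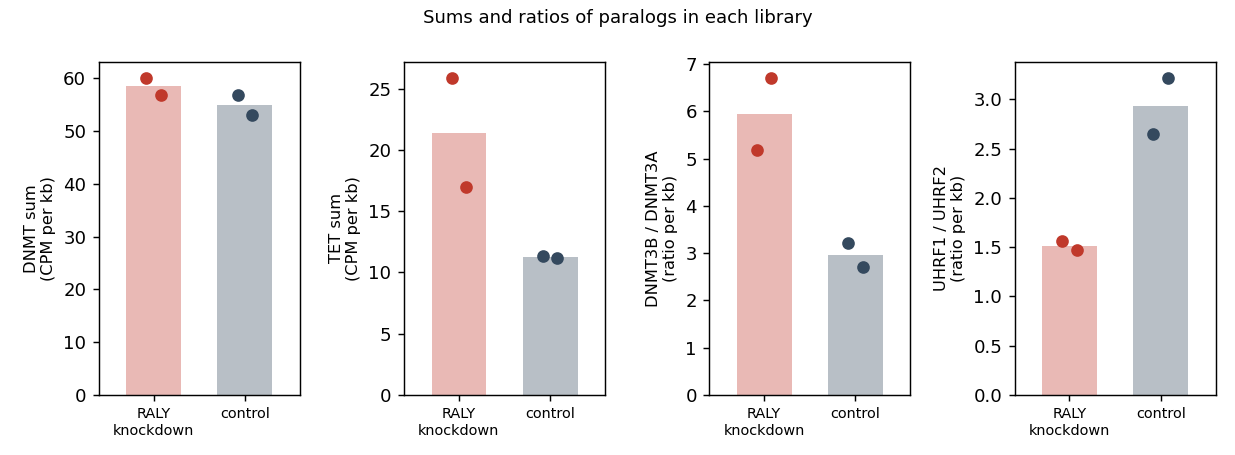
Values per library (points) and their mean (bars) for RALY knockdown (red, left) and control (dark, right): summed CPM per kilobase of exon of the DNMT and of the TET genes, and the ratios DNMT3B to DNMT3A and UHRF1 to UHRF2. The TET sum and the DNMT3B to DNMT3A ratio are higher in the knockdown, the UHRF1 to UHRF2 ratio is lower, and the DNMT sums overlap.

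In the maintenance pair, UHRF1 was lower and DNMT1 was not called. UHRF1 (chromosome 19, positions 4903080 to 4962154) had 1825 and 1384 counts in knockdown libraries, against 2053 and 3048 in controls. That is 114 and 93.1 CPM in the knockdown and 156 and 176 CPM in controls, without overlap, the knockdown mean being 62.3% of the control mean. The log2 fold change was -0.68 (SE 0.128, edgeR adjusted p = 0.00264). DNMT1 (chromosome 19, positions 10133345 to 10231286), the highest of the group, had 353 and 338 CPM in knockdown libraries, against 357 and 325 CPM in controls. The groups overlapped, with a log2 fold change of 0.02 and a 95% interval of -0.26 to 0.30 (edgeR adjusted p = 0.937). DNMT1 shares 83 of its 9796 exon bases with S1PR2. UHRF1 transcripts per kilobase were 0.614 and 0.524 of those of DNMT1 in the knockdown, against 0.829 and 1.03 in controls (exact permutation p = 0.333).

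If counts of abundant genes level off relative to transcript length, fold changes are compressed. Whether they do so here was not tested. One alternative fit assumed a ceiling of 2 times the canonical transcript length. The mean count of DNMT1 was 49.8% of that ceiling, against 26.6% for UHRF1, 25.8% for UHRF2 and at most 14.3% for the other members. With counts corrected on that assumption, DNMT1 had a log2 fold change of 0.03 and UHRF1 of -0.81.

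UHRF2, a paralog of UHRF1 that also binds hydroxymethylcytosine (chromosome 9, positions 6413151 to 6507054), had 141 and 122 CPM in knockdown libraries, against 113 and 106 CPM in controls. The groups did not overlap, yet the log2 fold change of 0.26 (SE 0.116, 95% interval 0.01 to 0.52) was not called (edgeR adjusted p = 0.116). It was 0.36 without knockdown replicate 2 (edgeR adjusted p = 0.0387) and 0.14 without knockdown replicate 1 (edgeR adjusted p = 0.468). The UHRF1 to UHRF2 ratio per kilobase was 1.56 and 1.47 in knockdown libraries, against 2.64 and 3.22 in controls (exact permutation p = 0.333). With the length of the canonical transcript, which is far shorter for UHRF2 than all its exons together, the ratio was 0.742 and 0.699 in the knockdown and 1.26 and 1.53 in controls.

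Per kilobase of exon, the order of the genes in the knockdown was DNMT1 (35.3 CPM per kb), UHRF1 (20.1), DNMT3B (19.8), TET3 (14.5), UHRF2 (13.3), TET1 (3.53), DNMT3A (3.40) and TET2 (3.39). In controls it was DNMT1 (34.8), UHRF1 (32.3), DNMT3B (15.1), UHRF2 (11.0), TET3 (7.56), DNMT3A (5.11), TET2 (2.14) and TET1 (1.58). UHRF1 overlapped DNMT3B in the knockdown and DNMT1 in controls. TET3 overlapped UHRF1 and UHRF2 in the knockdown and neither in controls. TET1, DNMT3A and TET2 overlapped in the knockdown and could not be ranked, whereas in controls they did not overlap. With canonical transcript lengths the order changed: UHRF2 came second in the knockdown (36.8 CPM per kb), above UHRF1 (26.5), but below UHRF1 in controls (30.6 and 42.6). TET2 (5.82) then stood above DNMT3A (4.33) and TET1 (3.53) in the knockdown, without overlap, whereas DNMT3A (6.52) stood above TET2 (3.67) and TET1 (1.58) in controls.

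**Figure D3:**
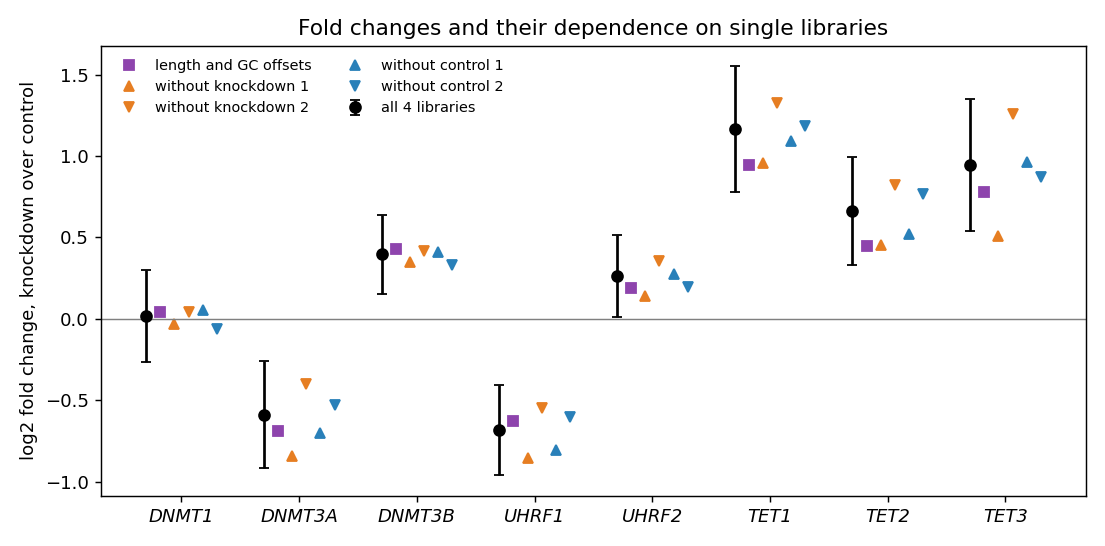
Log2 fold change of each gene, knockdown over control, with its 95% interval from all 4 libraries (black), and the values with length and GC offsets (squares) or with 1 library left out (triangles). The 6 called genes keep their direction in each setting shown, and TET3 ranges most, between 0.51 and 1.26.

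Calls depended on having both controls in the fit. Without control replicate 1, edgeR called 2 of the 8 genes, UHRF1 and TET1 (adjusted p = 0.0307 and 0.0495). Without control replicate 2 it called 0, with TET1 nearest (adjusted p = 0.0505) and 5 at an unadjusted p under 0.05. There the spread comes from the knockdown pair alone, which differed more than the control pair (chi-square per degree of freedom 9.32 in the knockdown and 5.10 in controls). DESeq2 on all 4 libraries called 5 of the 8. Directions of the 6 called genes were the same in all of these fits.

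For each called gene, the nearest patterns were sought among 13963 genes averaging 5 CPM or more, as the Euclidean distance between log2(CPM + 0.5) values centred over the 4 libraries. Closest to UHRF1 were UNKL, MYLK and FRG1BP (distances 0.0083, 0.0331 and 0.0408), and closest to DNMT3A, among genes with a name, DNAJC13 and RNF166 (0.0343 and 0.0437). For DNMT3B they were USP1, SMAD3 and TEX10 (0.0286, 0.0324 and 0.0344). TET2 lay nearest to UTP25, KMT2A and COL12A1 (0.0436, 0.0507 and 0.0537), TET1 to DENND2B (0.0587) and TET3 to LNCOC1, MDN1 and ALMS1 (0.0964, 0.119 and 0.15).

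The lists of related genes that follow hold 141 genes, of which 109 were tested, 13 rose and 22 fell, or 35 called, against 12.5% higher, 13.1% lower and 25.6% called of all genes tested, the shares to read each count below against. Without control replicate 1 edgeR called 7 of them and without control replicate 2 it called 4, with 33 and 45 at an unadjusted p under 0.05, so the calls given by list share the dependence described for the 8 genes.

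Of 17 tested partners that guide or assist methylation, 6 fell and 2 rose, against 13.1% lower and 12.5% higher of all genes, with a median log2 fold change of -0.25. The balance depended on the knockdown library, with 8 lower and 1 higher without knockdown replicate 1 and 3 lower and 3 higher without knockdown replicate 2. CDCA7, which recruits the remodeller HELLS, fell by 0.51 and its paralog CDCA7L by 0.60 in log2 units (edgeR adjusted p = 0.012 and 0.00444), while HELLS itself had 199 and 165 CPM in the knockdown and 233 and 212 CPM in controls and was not called (adjusted p = 0.124). USP7, a deubiquitinase bound to DNMT1 and UHRF1, had 178 and 162 CPM in knockdown libraries, against 247 and 226 CPM in controls (log2 fold change -0.48, edgeR adjusted p = 0.0132). The histone H3 lysine 9 methyltransferase gene EHMT1 fell by 0.57. NSD1, which sets a histone mark read by DNMT3A, rose by 0.73, and TRDMT1, a DNMT relative that acts on transfer RNA, rose by 0.59 on the log2 scale. NSD2, also on this list, fell (log2 fold change -0.44, edgeR adjusted p = 0.0352). CDCA7L shares 21.4% of its exon bases with other genes, so its count is uncertain.

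Readers of methyl-CpG gave 2 higher and 1 lower of 10, a share near that of all genes. ZBTB38, a zinc finger protein that binds methylated DNA, had 126 and 108 CPM in the knockdown, against 77.5 and 72.9 CPM in controls (log2 fold change 0.63, edgeR adjusted p = 0.00237). MBD1 rose by 0.38, and MBD3, a subunit of the NuRD complex, fell by 0.51 on the log2 scale. Without knockdown replicate 1, 3 were higher and 2 lower.

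Of 13 genes for repair of oxidised methylcytosine, 2 rose and 3 fell. TDG, the glycosylase that removes the bases made by TET enzymes, had 102 and 98.4 CPM in knockdown libraries, against 73.4 and 68.2 CPM in controls (log2 fold change 0.50, edgeR adjusted p = 0.00642). GADD45B, a stress gene linked to active demethylation, had 59.0 and 62.2 CPM in the knockdown and 23.3 and 22.9 CPM in controls (log2 fold change 1.39, edgeR adjusted p = 5.16e-05). The ligase gene LIG3, its scaffold XRCC1 and the glycosylase gene NEIL1 fell by 0.69, 0.45 and 0.54 on the log2 scale, and each shares between 29.9% and 30.5% of its exon bases with other genes. With length and GC offsets, 2 rose and 1 fell.

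Among 11 cofactors and partners of the TET enzymes, 4 fell and 1 rose. IDH2, a mitochondrial isocitrate dehydrogenase that makes oxoglutarate, had 33.1 and 27.8 CPM in knockdown libraries, against 74.6 and 63.2 CPM in controls (log2 fold change -1.17, edgeR adjusted p = 0.0002). Its cytosolic counterpart IDH1 fell by 0.41. IDH3A, also on this list, had 103 and 100 CPM in the knockdown and 126 and 116 CPM in controls. It was not called (edgeR adjusted p = 0.107), and it shares 38.9% of its exon bases with other genes. D2HGDH, which clears D-hydroxyglutarate, an inhibitor of TET enzymes, had 32.0 and 20.8 CPM in the knockdown and 53.7 and 64.8 CPM in controls (log2 fold change -1.16, edgeR adjusted p = 0.00102). HMCES, first named as a binder of hydroxymethylcytosine, fell by 0.46. CXXC4, which binds TET2 and lowers its protein, had 18.5 and 27.2 CPM in knockdown libraries, against 8.41 and 7.29 CPM in controls (log2 fold change 1.54, edgeR adjusted p = 0.000693).

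**Figure D4:**
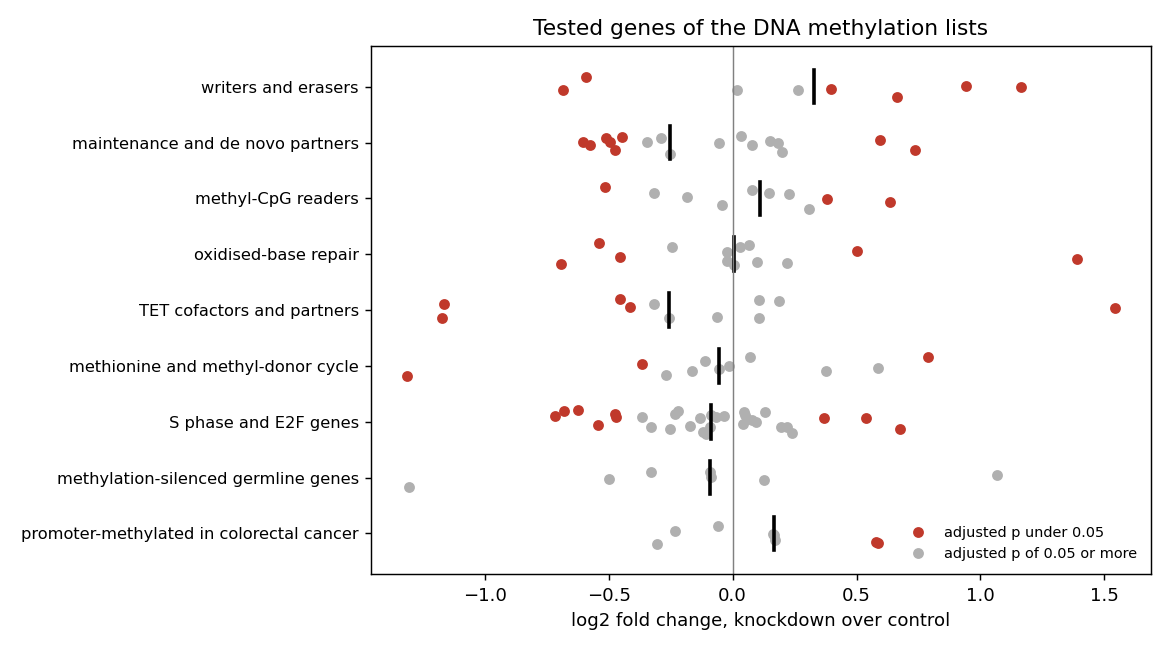
Log2 fold change, knockdown over control, of every tested gene in the fixed lists, with called genes in red and a bar at each list's median. Partners and TET cofactors have medians of -0.25, and the writers and erasers are spread from -0.68 to 1.16.

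In the cycle that supplies the methyl donor S-adenosylmethionine, 1 of 11 rose and 2 fell, again near the share of all genes. MTRR, the reductase that keeps methionine synthase active, had 112 and 106 CPM in knockdown libraries, against 60.3 and 65.7 CPM in controls (log2 fold change 0.79, edgeR adjusted p = 0.000529). MAT1A, the liver form of the synthetase, fell by 1.31 from a low level, with 7.49 and 6.12 CPM in the knockdown and 15.1 and 18.7 CPM in controls, and MTAP fell by 0.36 on the log2 scale. MAT2A, the main synthetase outside liver, had 255 and 257 CPM in the knockdown and 269 and 218 CPM in controls and was not called (adjusted p = 0.74). Its mean count was 67.6% of the assumed ceiling of 2 times the canonical transcript length.

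UHRF1 and DNMT1 are transcribed with S phase, so 32 S phase and E2F genes were set beside them. Of these 3 rose and 6 fell, a share near the 25.6% called over all genes, with a median of -0.09. Without knockdown replicate 1, 3 were higher and 10 lower, and without knockdown replicate 2, 4 were higher and 3 lower. E2F1 had 45.7 and 34.2 CPM in knockdown libraries, against 65.0 and 63.0 CPM in controls (log2 fold change -0.68, edgeR adjusted p = 0.00579). The licensing factor CDT1 and the helicase subunit MCM5 fell by 0.54 and 0.63, and CCNE1 by 0.72. E2F3 had 168 and 157 CPM in the knockdown and 112 and 112 CPM in controls (log2 fold change 0.54, edgeR adjusted p = 0.00415). CCNE2, which shares 37.1% of its exon bases with other genes, was higher by 0.68 on the log2 scale. PCNA had 97.0 and 97.8 CPM in the knockdown and 112 and 90.3 CPM in controls, with overlap. Mean counts of PCNA, MCM7, TK1 and TYMS, none of them called, were 59.3%, 61.8%, 60.3% and 57.8% of the ceiling assumed above. Among the called S phase and E2F genes CDT1 was highest, at 34.6%. With counts corrected on that assumption, 3 of the 32 rose and 5 fell. Whether counts level off was not tested. Whether these genes have a part in the lower UHRF1 level was not tested.

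Genes known as targets of silencing by methylation were then read, whether or not they were silent in these cells. Of 22 germline genes of this kind, 7 had enough counts and none was called by edgeR or DESeq2, with 2 at an unadjusted p under 0.05. These were MAGEA6, with 1.06 and 0.74 CPM in knockdown libraries and 1.14 and 3.24 CPM in controls (edgeR adjusted p = 0.073), and SYCP3, a protein of the meiotic chromosome axis, with 0.936 and 1.68 CPM in the knockdown and 0.455 and 0.752 CPM in controls (edgeR adjusted p = 0.129). MAGEA6 has near-identical copies, so its count and those of its relatives MAGEA3 and MAGEA12 are uncertain. Without knockdown replicate 1, 1 of the 7 was called higher and 1 lower. MAGEA3, MAGEB2 and MAGEA12 had between 65.4 and 105 CPM in all libraries, so by these counts they were not silent in controls. The untested genes of the list had at most 0.58 CPM in any library. SSX1 and PAGE2, also among the 7, were below 1 CPM in every library and not called (log2 fold change -0.33 and -0.50). With some of the 7 expressed in controls and the rest at few counts, the lack of calls does not measure whether silencing was lost. DAZL, MAGEA10, TEX101 and SYCE1 had no count anywhere, where 3 counts, the limit a count of 0 allows, correspond to 0.187 and 0.202 CPM in the knockdown and 0.227 and 0.174 CPM in controls. Such limits cover counting error only.

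Of 19 genes with promoter methylation in colorectal cancer, 8 were tested and 2 rose. VIM, which encodes vimentin, had 175 and 219 CPM in knockdown libraries, against 137 and 125 CPM in controls (log2 fold change 0.59, edgeR adjusted p = 0.0071), and shares 24.3% of its exon bases with other genes. RUNX3 had 98.9 and 109 CPM in the knockdown and 69.9 and 69.3 CPM in controls (log2 fold change 0.58, edgeR adjusted p = 0.0031). Both were already expressed in controls. TIMP3, MGMT, GATA5 and SFRP5 had no count in any library, and SFRP1, SFRP2, GATA4 and WIF1 stayed below 0.3 CPM. DNA methylation itself was not measured.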

How the data were processed

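Each library has 1 deposited table of raw read counts for every gene, laid out as featureCounts does per the file headers. The submitters' processing notes name HISAT2 2.0.4, SAMtools, Subread and featureCounts, with build GRCh38. Strand use and duplicate removal: not given in the sources used here. Gene names, found for 58472 of 58884 genes, and canonical transcripts are those of GENCODE release 44, and coordinates are those of the deposited tables.

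Groups came from sample titles. Genes were filtered with filterByExpr, scaled with TMM and tested with edgeR 4.0.16 (R 4.3.3), using the robust quasi-likelihood F test with a term for the group. P-values were adjusted by Benjamini-Hochberg over all 19686 genes and called under 0.05. The fit was also run on simulated data given the same spread beyond counting error for every gene and both groups. In the real data the knockdown pair differed more than the control pair, so that run does not measure the error rate here. CPM use TMM-scaled totals, and levels per kilobase use the deposited exon length. Sums, ratios and shares were compared by exact two-sided permutation over libraries.

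The members and lists were chosen with earlier results of these data known, and PAF15 was counted under its current name PCLAF. Named from each list were at most 4 called genes by smallest p in the commoner direction and at most 2 in the opposite one, or, with none called, the 2 with the smallest p. For each called member the 3 nearest patterns were taken, of which unnamed genes are left out. Other genes named (HELLS, NSD2, IDH3A, MAT2A, PCNA, DNMT3L, MAGEA3, MAGEB2, MAGEA12 and those with few or no counts) were chosen after their values were seen. Alternatives were DESeq2 1.42.0, its size factors, plain totals, filters, a replicate block, each library left out, a correction for an assumed levelling off, length and GC offsets and a fit that was not robust.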

Additional observations from a re-analysis of the deposited data

How the results depend on the processing

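Under the 13 alternatives, the 6 called genes of the group kept their direction and RALY kept its call. Between 5 and 7 of the 8 genes were called under every alternative other than leaving out a control, where the number was 0 or 2, and leave-one-out fits as a whole ranged from 0 to 7. Over all genes, leaving out 1 library gave between 984 and 6259 calls against 5048 from all 4. DNMT1, never called, changed sign around 0: its log2 fold change was -0.0046 with plain totals, -0.0061 with DESeq2, -0.0072 with no filter, and between -0.062 and 0.052 over the fits without 1 library. With the replicate block 6 of the 8, 7054 genes in all, 5 methyl-CpG readers and 1 germline gene were called. Deviations of same-numbered libraries correlated at 0.232, but no label says what the number marks. With 2 libraries a group, no sum or ratio can reach an exact permutation p under 0.333. The TET sum ratio was 1.90, 1.86 with plain totals and 1.86 with canonical lengths. The DNMT sums overlapped with TMM scaling and with canonical lengths but not with plain totals. With plain totals they were 58.4 and 57.3 CPM per kb in the knockdown and 56.2 and 54.4 in controls (exact permutation p = 0.333).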
